A study of Mus musculus with 4 samples.

Results

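The EPHB receptors and the B-class ephrins are the 8 genes Ephb1, Ephb2, Ephb3, Ephb4, Ephb6, Efnb1, Efnb2 and Efnb3. They were taken by symbol from the 55487 gene rows of the count table, and all 8 were found there. RNA-seq was performed on E14-Tg2a mouse embryonic stem cells (mESCs), an established WT line, during cardiogenic differentiation, with 2 libraries at day 2 (d2) and 2 at day 4 (d4). The d2 cells had spent 48 h as embryoid bodies in serum-free medium with no added growth factor named. The d4 cells had the same 48 h, then dissociation and 40 h of reaggregation with human Activin A at 8 ng/ml, BMP4 at 0.5 ng/ml and VEGF at 5 ng/ml, so that time, factors and reaggregation changed together and cannot be told apart. Per the methods, the 2 replicates come from 2 independent differentiation experiments on this 1 line.

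EPH receptors are receptor tyrosine kinases that bind ephrins on a neighbouring cell, and binding signals both ways: forward into the cell with the receptor and reverse into the cell with the ephrin. A-class ephrins are held in the membrane by a lipid anchor, whereas B-class ephrins span it and carry a cytoplasmic tail with tyrosines and a PDZ-binding end. In blood vessels ephrin-B2 marks arterial and EPHB4 venous endothelium, and this ligand and receptor pair is needed for vessel remodelling in the embryo.

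Library totals ranged from 11397439 to 16851485 counts. The d4 libraries held markers of several cell types. The summed level of 12 endothelial markers was 21.0 to 26.4 CPM (counts per 1000000 counts of the scaled library) at d2 and 902 to 1202 at d4, with 9 of 11 tested markers higher. Emcn, which was not tested, had 0 counts at d2 and 5 over both d4 libraries, too few to show a change. All 8 primitive blood markers were higher at d4 (sums of 3.598 and 3.797 CPM at d2 against 407 and 567 at d4), as were 6 of 7 tested mesoderm markers and 6 of 7 tested mural and fibroblast markers. All 8 pluripotent and epiblast markers were lower (4748 and 5654 CPM against 221 and 241), as were all 5 tested neuroectoderm markers. Of 4 tested endoderm markers, 2 were higher and 1 lower. In these bulk samples fewer cells of a type and less RNA per cell cannot be told apart, and the part of these cell types in any value below was not tested.

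Promoter windows of 250 bases before to 50 bases after the transcription start (RefSeq, GRCm38.p6) were found for 7 of the 8 genes. Those of 2 ephrins, of Ephb4, the receptor paired with Efnb2 in vessels, and of Ephb1 are printed 5′ to 3′ on the strand of the gene. By the test described below, these 2 ephrins were called higher at d4, and Ephb1 was the only gene of the family called lower. Capitals mark matches, on either strand, to any of 7 motifs: GATA, the ETS core CCGGAA, the AP-1 site TGANTCA, the RBPJ site TGGGAA, the CCAAT box CCAAT, the GC box GGGCGG and the TATA box TATAAA. No matched base in the 7 windows belonged to more than 1 motif.
Efnb1: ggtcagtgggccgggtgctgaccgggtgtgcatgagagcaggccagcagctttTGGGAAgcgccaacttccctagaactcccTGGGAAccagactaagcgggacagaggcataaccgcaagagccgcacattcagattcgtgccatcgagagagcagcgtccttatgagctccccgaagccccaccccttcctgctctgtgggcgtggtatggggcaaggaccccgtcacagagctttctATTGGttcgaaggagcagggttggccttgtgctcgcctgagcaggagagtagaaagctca
Efnb2: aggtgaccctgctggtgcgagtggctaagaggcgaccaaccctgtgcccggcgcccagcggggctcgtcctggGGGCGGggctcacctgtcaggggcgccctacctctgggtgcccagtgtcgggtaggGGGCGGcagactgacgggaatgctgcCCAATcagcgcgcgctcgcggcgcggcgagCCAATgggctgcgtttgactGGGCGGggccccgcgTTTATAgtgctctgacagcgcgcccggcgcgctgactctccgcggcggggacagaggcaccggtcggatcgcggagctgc
Ephb4: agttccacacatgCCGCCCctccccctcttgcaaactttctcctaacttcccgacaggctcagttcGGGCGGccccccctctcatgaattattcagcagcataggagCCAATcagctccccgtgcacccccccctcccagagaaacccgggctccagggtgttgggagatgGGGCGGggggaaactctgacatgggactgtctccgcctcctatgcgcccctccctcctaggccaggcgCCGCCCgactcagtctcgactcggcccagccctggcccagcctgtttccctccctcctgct
Ephb1: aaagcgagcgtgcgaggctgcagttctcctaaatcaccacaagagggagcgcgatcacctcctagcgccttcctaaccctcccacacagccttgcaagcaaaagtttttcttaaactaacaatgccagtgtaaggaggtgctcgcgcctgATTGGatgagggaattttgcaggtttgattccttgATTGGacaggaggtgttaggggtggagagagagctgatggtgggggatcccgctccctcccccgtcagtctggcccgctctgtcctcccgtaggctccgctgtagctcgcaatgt

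The Efnb1 window (chrX:99135811-99136110, plus strand) held the RBPJ letters at 2 places and 1 CCAAT box, at a GC content of 59.7%. The Efnb2 window (chr8:8661193-8661492, minus strand) was richer in GC, at 72.3% with 35 CpG dinucleotides, and held 2 CCAAT boxes, 3 GC boxes and the TATA letters. The Ephb4 window (chr5:137349859-137350158, plus strand) held 4 GC boxes and 1 CCAAT box at 64.7% GC. The Ephb1 window (chr9:102354644-102354943, minus strand) held 2 CCAAT boxes and no GC box at 55.7% GC. Over all 32851 windows in the table the median GC content was 52.7% and the median number of CpG dinucleotides 7.

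The windows of the family thus differed among themselves, and no single motif ran through all of them. The CCAAT box was present in 5 of 7 windows (Ephb1, Ephb2, Ephb4, Efnb1 and Efnb2) and in 37.4% of all windows. The GC box was present in 4 (Ephb3, Ephb4, Ephb6 and Efnb2) and in 35.7% of all. The ETS letters stood in those of Ephb2 and Ephb6 (14.9% of all), the RBPJ letters in that of Efnb1 (25.6% of all), the TATA letters in that of Efnb2 (13.6% of all) and GATA in that of Ephb3 (57.9% of all). The AP-1 letters were in none of the 7 windows and in 7.81% of all. These are matches of letters and not binding sites.

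All 3 B-class ephrins were higher at d4, by 2.50-fold to 45.3-fold, while of the 5 receptors Ephb1 was lower by 18.5-fold and the other 4 were not called, which does not show that they did not change. A gene was called where edgeR's quasi-likelihood test gave a Benjamini-Hochberg adjusted p under 0.01 over the 14932 genes tested. All 8 genes were tested. Of all genes tested, 12.9% were called higher and 11.3% lower at d4. The CPM of the days did not overlap for any of the 8 genes, but that also held for 70.9% of all genes tested. The median log2 fold change was 2.93 over the ephrins and −0.45 over the receptors, against −0.03 over all genes tested.

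**Figure D1:**
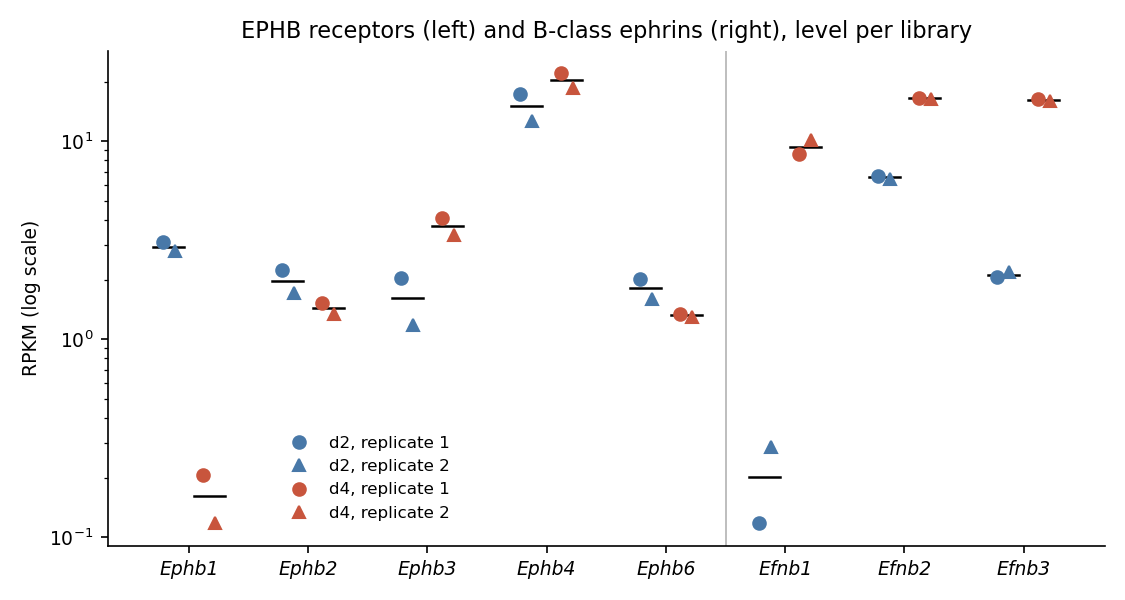
Level of each gene in every library, in CPM per kilobase of exon (RPKM, log axis). Circles are replicate 1, triangles replicate 2, blue d2, red d4, and black bars the mean of a day (n = 2). The 3 ephrins and Ephb1 show the widest steps between days, with Ephb3 (2.33-fold) close to Efnb2 (2.50-fold). By this length Ephb4 is the highest gene on both days.

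Efnb1 (ENSMUSG00000031217, chrX:99136130-99148991, GRCm38), the X-linked ligand ephrin-B1 that is mutated in craniofrontonasal syndrome, had the largest change of the family. It was nearly absent at d2, with 5 counts in replicate 1 and 13 in replicate 2, and had 353 and 592 counts at d4. In CPM, after scaling of the libraries by trimmed mean of M-values (TMM), it went from 0.409 and 0.987 to 29.9 and 34.8. Both d4 libraries lay far above both d2 libraries. The log2 fold change was 5.50 ± 0.40 (SE, adjusted p = 1.26e-04), above those of 97.8% of the genes tested. Since the d2 mean rests on 18 counts, 0.698 ± 0.409 CPM (SD, n = 2), the size of the fold is less certain than its direction: without d2 replicate 1 it was 5.02 on the log2 scale, and without d2 replicate 2 it was 6.22.

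Efnb3 (ENSMUSG00000003934, chr11:69554092-69560205), the ligand ephrin-B3 known for stopping axons at the midline of the nervous system, had 6.54 and 6.91 CPM at d2 and 52.1 and 50.8 CPM at d4. The replicates of each day lay close together and the days did not overlap. This was a 7.64-fold rise, with a log2 fold change of 2.93 ± 0.22 (SE, adjusted p = 1.38e-04).

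Efnb2 (ENSMUSG00000001300, chr8:8617434-8661242), the arterial ligand ephrin-B2, was the most abundant ephrin at d2 and rose least. It had 45.9 and 44.3 CPM at d2 and 113.5 and 112.3 CPM at d4, so both d4 libraries were well above both d2 libraries. The rise was 2.50-fold, with a log2 fold change of 1.32 ± 0.19 (SE, adjusted p = 0.0018).

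Ephb1 (ENSMUSG00000032537, chr9:101922128-102354693), a receptor known for turning retinal axons at the optic chiasm, went the other way. Its d2 libraries held 264 and 256 counts and its d4 libraries 17 and 14, or 21.6 and 19.4 CPM against 1.44 and 0.824 CPM. Both d4 libraries were far below both d2 libraries. The log2 fold change was −4.21 ± 0.34 (SE, adjusted p = 1.84e-04), lower than in all but 4.01% of genes tested. The summed level of 8 neuroectoderm markers was 220 and 184 CPM at d2 and 70.8 and 60.8 CPM at d4. Of this, Nes alone had 132.2 and 114.7 CPM at d2 and 64.8 and 55.8 CPM at d4. Hes5 and Neurog2 were at 0 at d4, but had only 11 and 10 counts over both d2 libraries. The summed level of 8 pluripotent and epiblast markers was 5654 and 4748 CPM at d2 and 241 and 221 CPM at d4. The part of either change in the fall of Ephb1 was not tested. An opposite-strand lincRNA, Gm26846, shares 152 exonic bases with Ephb1. No row of the count table was matched to Gm26846, so its level could not be examined. Per the methods the counting used strand, but the labels name the table of the other strand.

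Ephb4 (ENSMUSG00000029710, chr5:137350109-137378669), the venous receptor for ephrin-B2, had 80.6 and 58.9 CPM at d2 and 102.2 and 86.3 CPM at d4. The d4 libraries were the higher ones, but the gap between the days, from 80.6 to 86.3 CPM, was smaller than the difference between the d2 replicates. Its log2 fold change was 0.43 ± 0.23 (SE, adjusted p = 0.187). It was called under none of 20 alternatives, though some of these could not have added a call. Zan, on the opposite strand, shares 33 exonic bases with Ephb4 and had at most 3 counts in any library.

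Ephb3 (ENSMUSG00000005958, chr16:21204755-21223305), which acts with Ephb2 in sorting cells along the intestinal crypt, had 13.5 and 7.82 CPM at d2 and 27.3 and 22.4 CPM at d4. Both d4 libraries were above both d2 libraries, and the d2 replicates differed by more than the d4 replicates. With a log2 fold change of 1.22 ± 0.31 (SE) its adjusted p was 0.0207, so it was not called. It was called, in the same direction, in 7 of 20 alternatives. Adjusted p was 0.00919 in DESeq2 and 1.4e-06 in edgeR with the replicate number as a block. In edgeR with each library's trend with GC content and length removed it was 0.00453. Without d4 replicate 2 its log2 fold change was 1.36. Its place on either side of the threshold thus depends on the setting.

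Ephb2 (ENSMUSG00000028664, chr4:136647539-136835988), a receptor of axon guidance and synapses, had 28.1 and 21.5 CPM at d2 and 19.2 and 16.8 CPM at d4. The d4 libraries were the lower ones by a narrow gap. The log2 fold change was −0.46 ± 0.24 (SE, adjusted p = 0.174), and with the GC and length trend removed it was −0.75 with adjusted p = 0.00476, past the threshold.

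Ephb6 (ENSMUSG00000029869, chr6:41605482-41620509), whose kinase domain lacks catalytic activity, was the receptor with the fewest counts at d2, 93 and 79, against 60 and 83 at d4. In CPM it had 7.61 and 6.00 at d2 and 5.08 and 4.88 at d4. The log2 fold change was −0.45 ± 0.28 (SE, adjusted p = 0.247). No alternative called it, though some could not have added a call.

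**Figure D2:**
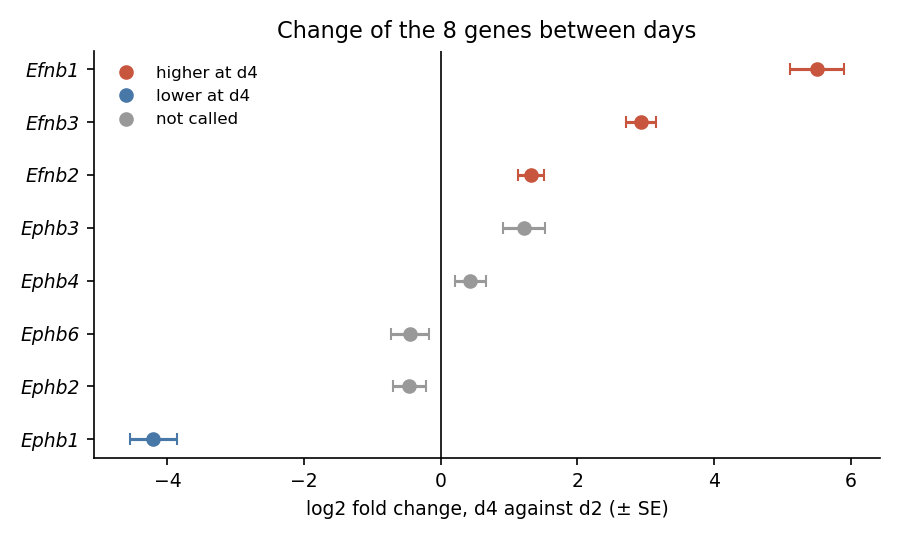
Fitted log2 fold change of each gene, d4 against d2, with bars of ± 1 SE from edgeR's quasi-likelihood fit. Red points passed the threshold upwards, the blue point downwards, and grey points did not pass. The ephrins take the top 3 places, from 1.32 to 5.50, and Ephb1 the lowest, at −4.21. Ephb3 comes next after Efnb2, at 1.22, and the bars of these 2 genes overlap.

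With 1 d2 library, edgeR's test had no call to give at this threshold. Without d2 replicate 1 or without d2 replicate 2 it called no gene of the table, the 8 genes included, with lowest adjusted p-values of 0.0189 and 0.018 while 6257 and 5973 genes had an unadjusted p under 0.05. DESeq2 on the same 3 libraries, an alternative added after the data were seen, still called Efnb1, Efnb3 and Ephb1, but not Efnb2 (adjusted p = 0.025 and 0.0265). The fold changes of Efnb2, Efnb3 and Ephb1 moved little in edgeR without d2 replicate 1 and without d2 replicate 2. On the log2 scale they were 1.34 and 1.24 for Efnb2, 2.89 and 2.92 for Efnb3 and −4.14 and −4.34 for Ephb1. Efnb1 moved most, as given above. Beside their size, those of the 4 receptors not called moved more. They were 1.65 and 0.82 for Ephb3, 0.67 and 0.16 for Ephb4, −0.26 and −0.70 for Ephb2 and −0.27 and −0.67 for Ephb6.

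Levels of different genes can be compared only per length, for which CPM per kilobase of merged exon (RPKM) were used. At d2 Ephb4 was highest, at 15.0 ± 3.32 RPKM (SD, n = 2), ahead of Efnb2 at 6.58 ± 0.158 and Ephb1 at 2.93 ± 0.217. Efnb3 at 2.11, Ephb2 at 1.97, Ephb6 at 1.80 and Ephb3 at 1.61 RPKM followed, each overlapping its neighbour in this order over the 2 libraries. Efnb1 was last, at 0.202 ± 0.118 RPKM.

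At d4 Ephb4 was again first, at 20.3 ± 2.42 RPKM, but the ephrins had moved up behind it. Efnb2 at 16.5 ± 0.122 and Efnb3 at 16.2 ± 0.302 RPKM overlapped each other, and Efnb1 followed at 9.37 ± 1.01 RPKM. Below them came Ephb3 at 3.74 ± 0.521 RPKM, then Ephb2 at 1.43 and Ephb6 at 1.32 RPKM, which overlapped. Ephb1 was last, at 0.162 ± 0.0621 RPKM. The order of Ephb4 and Efnb2 at d4 depends on the length used: per base of the longest transcript (4340 bases for Ephb4 and 4793 for Efnb2, against 4640 and 6855 of merged exon), Efnb2 was the higher in both d4 libraries, at 23.7 against 23.5 RPKM in replicate 1 and 23.4 against 19.9 in replicate 2. By that length Efnb2 was also above Efnb3, which had 16.4 and 15.95 RPKM.

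The summed level of the ligands was higher in both d4 libraries, whereas the summed levels of the receptors on the 2 days overlapped. The 3 ephrins together had 8.87 and 8.93 RPKM at d2 and 41.6 and 42.4 at d4. The 5 receptors together had 26.7 and 19.9 RPKM at d2 and 29.2 and 24.7 at d4. The ratio of summed ephrin to summed receptor RPKM was 0.332 and 0.448 at d2 and 1.42 and 1.72 at d4. It was below 1 in both d2 libraries and above 1 in both d4 libraries, also with the longest transcript as length, where it was 0.384 and 0.511 at d2 and 1.51 and 1.81 at d4. The RPKM of Efnb2 over that of Ephb4 was 0.385 and 0.51 at d2 and 0.752 and 0.881 at d4, and 1.01 and 1.18 at d4 with the longest transcript. These sums count RNA and not protein, and ligand and receptor may stand on different cells.

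The make-up of the receptors and of the ephrins differed between the days. Among the receptors Ephb4 took 64.3% ± 0.99 of the summed RPKM at d2 and 75.3% ± 0.0707 at d4 (SD, n = 2). The share of Ephb1 went from 12.7% ± 1.70 to 0.59% ± 0.161, and that of Ephb3 from 6.75% ± 1.2 to 13.8% ± 0.354. Among the ephrins Efnb2 made up 74.0% ± 2.12 at d2 and 39.2% ± 0.849 at d4, as Efnb3 went from 23.8% to 38.5% and Efnb1 from 2.27% to 22.3%. For each gene named here the shares of the days did not overlap. With the longest transcript as length, Efnb2 made up 81.4% and 78.9% at d2 and 48.1% and 46.8% at d4, and Efnb3 17.5% and 18.5% at d2 and 33.3% and 31.9% at d4. A share falls when others rise: Efnb2 itself was 2.50-fold higher at d4.

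**Figure D3:**
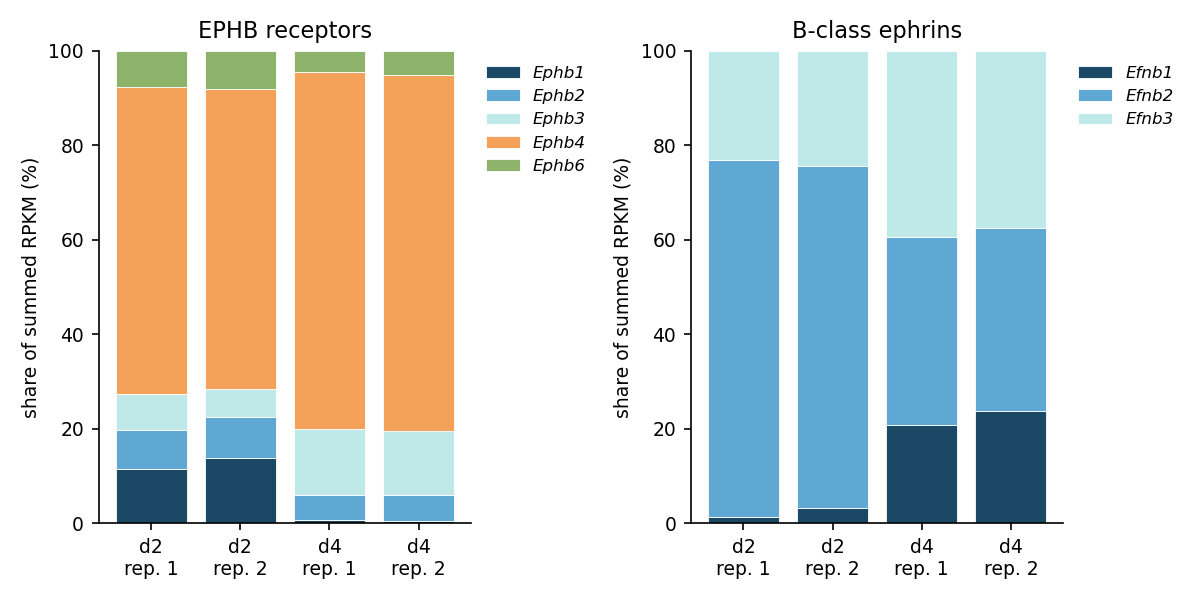
Share of each gene in the summed RPKM of the 5 receptors (left) and of the 3 ephrins (right), in percent, with 1 bar per library. Ephb4 fills most of every receptor bar, and the ephrin bars go from mostly Efnb2 at d2 to Efnb2 and Efnb3 in near-equal parts, with Efnb1, at d4. The lengths are of merged exons, and with the longest transcript Efnb2 keeps the larger part at d4 (48.1% and 46.8%).

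In the A-class, the other branch of the system, 2 receptors were called lower and 2 ephrins higher at d4, and the others tested were not called. Of 9 A-class receptors 6 were tested, 2 were lower and none higher. Epha1, a receptor of epithelia, fell from 110.3 and 102.3 CPM to 1.78 and 2.24 CPM (log2 fold change −5.71, adjusted p = 4.50e-05), and Epha8 counts went from 71 and 50 to 0 and 1, a ratio of 137 after scaling (exact 95% counting interval 24.2 to 5470). Epha10 and Epha2 were not called (adjusted p = 0.0239 and 0.0885). Of the 5 A-class ephrins, Efna1 rose from 1.23 and 1.52 to 29.9 and 23.9 CPM (log2 fold change 4.28, adjusted p = 1.14e-04) and Efna3 by 1.48 on the log2 scale (adjusted p = 0.00588), and 3 were not called. In the edgeR fit of all 4 libraries no receptor of either class was called higher and no ephrin lower. Of all genes tested, 12.9% were called higher and 11.3% lower, so that few or no such calls would come among so few genes at those shares. Ephb3 was called higher in 7 of 20 alternatives, and a difference between receptors and ephrins was not itself tested.

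Epha4 and Efna5 bind across the classes, EPHA4 to B-class ephrins and ephrin-A5 to EPHB2. Epha4 had 22.4 and 27.0 CPM at d2 and 33.4 and 33.0 CPM at d4, with a log2 fold change of 0.43 (adjusted p = 0.161). Efna5 had 8.91 and 13.2 CPM at d2 and 17.5 and 15.9 CPM at d4, with a log2 fold change of 0.59 (adjusted p = 0.131). Neither was called.

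Of 48 genes listed as partners in forward signalling, reverse signalling or cleavage, 47 were tested and 19 called, 14 higher and 5 lower, against 24.3% of all genes tested that were called in either direction. Their median log2 fold change was 0.54. With the replicate number as a block 29 were called, against 46.7% of all genes tested in that fit.

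Reverse signalling runs through the tail of the ephrin, by SRC-family kinases, the adaptor NCK2 and PDZ proteins. Of its 14 listed genes 4 were higher, 3 lower and 7 not called, with a median log2 fold change of 0.56. Pard6b, a polarity protein that binds the tail of ephrin-B1, rose from 29.9 and 28.0 to 136.9 and 152.0 CPM (log2 fold change 2.32, adjusted p = 2.29e-04). Stat3, a transcription factor, rose by 2.47, Rgs3, the PDZ protein that dampens G-protein signals, by 2.08, and Tiam1, an exchange factor of RAC, by 2.01 on the log2 scale (adjusted p = 5.11e-04, 8.28e-04 and 9.44e-04). The 3 lower genes, Cnksr1 (−3.71, adjusted p = 0.00121), Grip2 (−3.27, adjusted p = 0.00121) and Pick1 (−1.18, adjusted p = 0.0078), encode scaffold proteins with PDZ domains. The related PDZ scaffold Grip1 had a log2 fold change of 0.15 (adjusted p = 0.622).

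Forward signalling starts at the phosphorylated receptor. Of its 25 listed genes 7 were higher, 2 lower and 16 not called, with a median log2 fold change of 0.38. The exchange factors Kalrn (9.90 and 9.72 CPM at d2, 99.7 and 103.8 at d4) and Vav3 (6.46 and 6.76 CPM at d2, 43.6 and 42.1 at d4) rose by 3.37 and 2.70 on the log2 scale (adjusted p = 8.66e-05 and 1.84e-04). Grb7, an SH2 adaptor, and Pak1, a kinase that acts after RAC and CDC42, had log2 fold changes of −3.71 and −2.04 (adjusted p = 1.66e-04 and 4.19e-04).

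Metalloproteinases cut ephrins and EPH receptors at the cell surface, and γ-secretase then cuts the membrane stub. Of 9 genes listed for cleavage 8 were tested, all but Rhbdl2, a protease of another kind. Of the 8, 3 were higher and none lower, with a median log2 fold change of 0.93, also with Mmp9 at its bound. Mmp9 was without a count in both d2 libraries and had 85 and 84 at d4. It was at least 25.7-fold higher, with 3 counts in each d2 library taken as the floor. Adam10, a main sheddase of ephrins, had 22.5 and 33.9 CPM at d2 and 70.8 and 125.3 CPM at d4 (log2 fold change 1.80, adjusted p = 0.00612), and Mmp2 rose by 1.71 (adjusted p = 9.20e-04). Aph1a, a γ-secretase subunit, missed the threshold narrowly, with a log2 fold change of 1.14 and adjusted p = 0.01003.

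**Figure D4:**
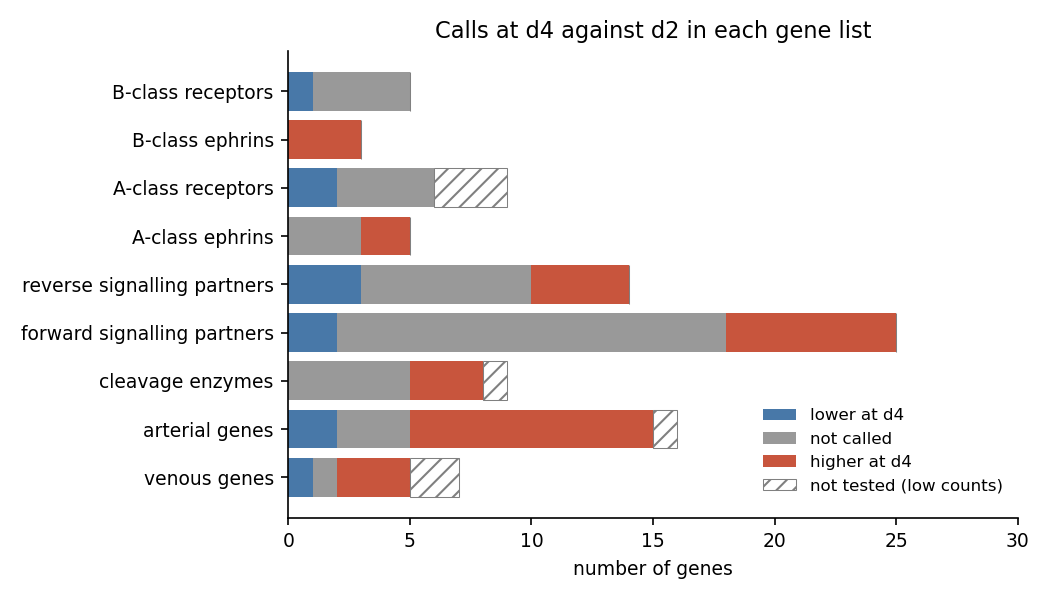
Number of genes in each list that were called lower at d4 (blue), not called (grey), called higher (red) or not tested for low counts (hatched). The 3 B-class ephrins are all red, and no receptor of either class is red (Ephb3 was called higher in 7 of 20 alternatives). Grey are 7 of 14 reverse signalling partners, 16 of 25 forward signalling partners and 5 of 9 cleavage enzymes. Efnb2 is also counted among the arterial genes and Ephb4 among the venous genes.

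Efnb2 and Ephb4 were also set among the genes that mark arteries and veins. Of 16 arterial genes, Efnb2 included, 15 were tested, 10 were higher and 2 lower, with a median log2 fold change of 3.87, so that the 1.32 of Efnb2 was the smallest among the 10 that were higher. Cxcr4, the receptor of the chemokine CXCL12, had 0.736 and 0.835 CPM at d2 and 103.2 and 104.0 CPM at d4, and Hey2, a repressor downstream of NOTCH, had 0.491 and 0.608 CPM at d2 and 19.97 and 21.53 CPM at d4. Both started near 0, whereas Efnb2 was already at 45.9 and 44.3 CPM at d2. It was not alone in this: Unc5b, a netrin receptor also called higher, had 85.1 and 60.1 CPM at d2 and rose by 1.75 on the log2 scale. The NOTCH ligand Jag1 and the kinase gene Bmx were the 2 lower genes, the latter with 16 and 27 counts at d2 and 0 in both d4 libraries. Dll4, Notch4 and Notch1 were not called (adjusted p = 0.01003, 0.021 and 0.468).

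Of 7 venous genes, Ephb4 included, 5 were tested, 3 were higher and 1 lower. Aplnr had 0.245 and 0.456 CPM at d2 and 224.8 and 176.7 CPM at d4, and Nrp2 rose by 4.45 and Flt4 by 2.62 on the log2 scale (adjusted p = 7.48e-05 and 8.84e-04). The gap junction gene Gja1, also high in many other cells, had a log2 fold change of −1.73 (adjusted p = 0.00156). Nr2f2, the regulator of venous identity, had 0 counts in both d2 libraries and too few at d4 to be tested. Ephb4 was thus 1 of 3 listed genes of veins that were either not called or not tested. At d2 Ephb4 had 80.6 and 58.9 CPM and Efnb2 45.9 and 44.3 CPM, where the 12 endothelial markers together had 26.4 and 21.0 CPM. These values are not per length.

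The genes whose levels were most like those of Efnb2, by Euclidean distance of log2 CPM over the 4 libraries, were Ptpra (0.102), Sav1 (0.177), Pja1 (0.209), Ralb (0.262) and Gfpt1 (0.282). For Ephb4 they were Atp5d (0.071), Arhgef25 (0.115), Pmvk (0.145), Eps15l1 (0.148) and Sgta (0.181). None of these 10 genes is an arterial or venous gene of the lists above. Such an absence was likely in advance, since those lists hold few of the 14932 genes tested and the distance compares levels as well as changes. It therefore does not show whether Efnb2 or Ephb4 changed like the genes of vessels.

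**Figure D5:**
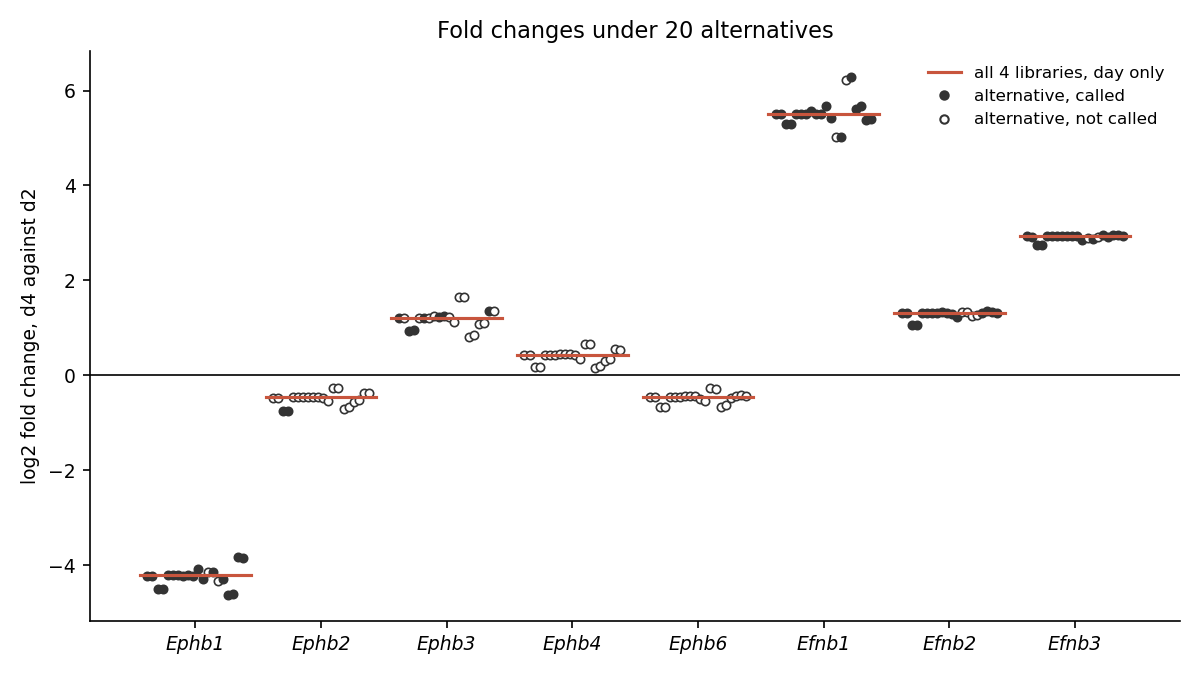
Log2 fold change, d4 against d2, of each gene with all 4 libraries and day as the only term (red bars) and under 20 alternatives (points, filled where the gene was called). No gene changed sign. Efnb1 ranged from 5.02 to 6.29 and Ephb1 from −4.62 to −3.82, and Ephb3, from 0.82 to 1.65, has both filled and open points.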

How the data were processed

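RNA was measured in 4 libraries of E14-Tg2a cells, 2 at d2 and 2 at d4, grouped by the time point in their labels. The authors deposited raw counts per gene. Per the methods, cutadapt trimmed the paired-end reads of these strand-specific libraries, which were aligned to mm10 (GRCm38) with STAR and counted with featureCounts by strand, without reads that map to several places or overlap several genes. The labels name a forward-strand table, while the table used here is the reverse-strand one, the setting given in the methods. Reads in regions shared with a related gene are thus lost. The annotation is named in more than 1 way, so symbols, positions and lengths came from GENCODE models of GRCm38, which matched 55227 of 55487 gene IDs.

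Genes were kept where the summed counts of d2 or of d4 exceeded 0.5 CPM in a one-sided proportion test (adjusted p under 0.05), which left 14932 and 99.84% to 99.86% of the counts. The main test was edgeR 4.0.16 in R 4.3.3 (TMM factors from 0.94 to 1.04, glmQLFit and glmQLFTest, two-sided, day as the only term), with Benjamini-Hochberg adjusted p under 0.01 and fold changes from the same fit. DESeq2 (1.42.0), which the study used together with NOISeq, and limma 3.58.1 were alternatives, with NOISeq not run, beside other scalings and filters, thinning, a replicate block, a GC and length correction and leaving out each library. The procedure was tested on simulated counts. With 2 libraries per day the biological coefficient of variation was 23.6%, and SDs have n = 2. RPKM uses merged exon length. A fold against 0 counts is a bound at 3 counts per library, and intervals and floors cover counting error only.

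All 8 genes were named, and from each other list up to 4 tested genes with the smallest adjusted p, besides any needed to complete a short count, with 5 most similar genes each for Efnb2 and Ephb4. Epha2, Grip1 and the arterial and venous genes given as not called as well as Unc5b, complete such counts or were chosen after their values were seen. Genes and lists were chosen with earlier results of these data known.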

Additional observations from a re-analysis of the deposited data

How the results depend on the processing

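Of the 8 genes, Ephb4 and Ephb6 kept their side of the threshold in all 20 alternatives, Ephb1, Efnb1, Efnb3 and Ephb2 in 18, Efnb2 in 16 and Ephb3 in 13, and no direction reversed. Not every alternative could differ. With 1 d2 library edgeR had no call to give, and a minimum fold change could not add a call. The looser threshold of adjusted p under 0.05 could not remove one. Leaving out 1 library at a time, in edgeR or DESeq2, gave 0 to 4 genes of the family higher and 0 to 1 lower, 0 to 4722 of all genes called and 0 to 20 signalling partners called. The lowest values came without d2 replicate 1 and without d2 replicate 2 in edgeR. A lone library was assumed there to vary like the other day. DESeq2 without 1 library, chosen after the data were seen, called 1774 and 1695 genes without d2 replicate 1 and 2, and 2374 without d4 replicate 1. Without d2 replicate 1 it called 12 partners. The cause was not tested.

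All genes called rose from 3627 to 5670 at adjusted p under 0.05 and to 5774 with no filter. With the GC and length trend removed 5445 genes were called and 2 genes of the family were lower, Ephb2 joining Ephb1. With the replicate block 6974 genes and 29 signalling partners were called, and with the trend removed and the replicate block together 6534 genes were called and again 2 genes of the family were lower. Same-numbered libraries deviated together over genes (r = 0.482 for 2 pairs), but the labels say only that they share a number. Replicate 2 minus replicate 1 fell with GC content over 14924 genes (Spearman −0.71 at d2 and −0.49 at d4). Upper-quartile scaling put the median of all genes at −0.11 on the log2 scale. Of 80 recomputed mean RPKM values 11 moved by over 1 SD, 7 with the longest transcript as length and 4 with upper-quartile scaling. The 32 from leaving out 1 library could not do so, since with n = 2 each value lies within 1 SD of the mean. Depth limits Efnb1 at d2 and Ephb1 at d4, with at most 17 counts per library.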
